A study of Homo sapiens with 9 samples.

Results

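MAOA, MAOB, SULT1E1, CYP1B1, CYP1A1, ALDH1A3, ALDH3A2, ALDH3A1, AKR1B10 and TIPARP were followed on 9 Affymetrix arrays. Of these 10 genes, 9 encode enzymes that act on steroid hormones, retinoids, foreign chemicals, aldehydes or biogenic amines, and TIPARP encodes a regulator of that metabolism. They were chosen by function, some of them for large changes on these arrays, so their own levels and changes are given as a description and without p-values. Every probe set annotated to exactly 1 of the 10 symbols was taken, which gave 21 of 54675 probe sets. The antisense genes CYP1B1-AS1 and TIPARP-AS1 have probe sets of their own and were not counted.

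MCF10A is a human breast epithelial cell line that is immortal but does not form tumours. There were 3 biological replicates in each of 3 groups. In one, cells were infected with pBabe-ErbB2, a retrovirus that encodes the receptor ERBB2. The EGF group carried empty pBabe and received EGF at 50 ng/ml for 2 h before harvest. The vector group carried empty pBabe alone. All 3 groups had been infected and then moved to medium with 2% horse serum and no EGF, after maintenance with 5% horse serum, hydrocortisone at 0.5 microgram/ml, EGF at 20 ng/ml, cholera toxin and insulin. Whether hydrocortisone, a ligand of the glucocorticoid receptor, stayed in the assay medium was not stated. Separate infections per replicate are not stated in the labels; p-values thus reflect sample-to-sample spread, which may be technical.

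The brightest ERBB2 probe set was lower on the arrays labelled ERBB2, at 114, 72.2 and 110.2, than on vector arrays, at 184, 216 and 122, while a dimmer one was higher, at 34.1, 34.2 and 38.5 on arrays labelled ERBB2 against 5.68, 9.69 and 22.5 on vector arrays. Neither the introduced sequence nor the probe positions were given, so the group is called by its label. Every array was most similar to one of its own group. Of 10 epithelial markers 8 had a probe set, and their summed signal was 18050 to 19367 on arrays labelled ERBB2, 21410 to 24306 with EGF and 21977 to 24491 on vector arrays. The sum hides opposite changes, with 3 markers called higher and 4 lower against vector. KRT14, a basal keratin, was 153, 138 and 156 on arrays labelled ERBB2, against 2464, 3132 and 2324 on vector arrays. KRT5 averaged 6227 ± 365 on arrays labelled ERBB2 and 11864 ± 788 on vector arrays. The luminal keratin KRT18 averaged 6345 ± 446 and EPCAM 2357 ± 313 on arrays labelled ERBB2, against 3559 ± 221 for KRT18 and 1063 ± 89.7 for EPCAM on vector arrays. The keratin KRT8 moved opposite to KRT18, at 1111, 936 and 927 on arrays labelled ERBB2 against 1173, 1280 and 1459 on vector arrays. LAMB3 moved opposite to KRT14 and KRT5, at 904, 751 and 762 on arrays labelled ERBB2 against 531, 534 and 592 on vector arrays. These markers, too, move with the differences given below, and their part was not tested. Fibroblast markers summed to 419 to 601 on arrays labelled ERBB2, 538 to 589 with EGF and 1373 to 1544 on vector arrays, most of it from DCN, and blood and endothelial markers to between 253 and 333 on all 9 arrays. Of 4 tested blood and endothelial markers 1 was called higher on arrays labelled ERBB2 than on vector arrays. PECAM1 read 90.8, 89.1 and 90.4 on arrays labelled ERBB2, against 18.2, 26.8 and 42 on vector arrays. The 18S ribosomal RNA control had a 3' signal of 11926 to 13513 on arrays labelled ERBB2, 2103 to 3369 with EGF and 1945 to 4570 on vector arrays, and ACTB controls had 5'/3' ratios of 0.701 to 0.796 on arrays labelled ERBB2, 0.378 to 0.505 with EGF and 0.325 to 0.436 on vector arrays. These controls move with every difference given below for the arrays labelled ERBB2, and their part in it was not tested.

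The enzymes belong to connected pathways. Monoamine oxidases A and B sit on the outer mitochondrial membrane and oxidize serotonin, noradrenaline, dopamine and dietary amines to aldehydes, which aldehyde dehydrogenases then turn into acids. ALDH1A3 makes retinoic acid from retinaldehyde, SULT1E1 inactivates estradiol and estrone by adding a sulfate, and the cytochromes CYP1A1 and CYP1B1 hydroxylate estrogens and polycyclic aromatic compounds. CYP1A1, CYP1B1, TIPARP and, in many cells, ALDH3A1 are switched on by the aryl hydrocarbon receptor AHR, which enters the nucleus after binding a ligand and acts with ARNT, and TIPARP and AHRR in turn restrain AHR.

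Signals are the authors' linear values, and changes are differences of group means of log2(signal + 16), so that changes of dim probe sets are understated. A gene is described by its brightest probe set unless stated. CYP1A1 and all 3 MAOB probe sets had mean signals below the filter on low values, the 40th percentile of all probe sets or 11.5, so 8 of the 10 genes were tested in a limma model of all 9 arrays. All 8 were called at a Benjamini-Hochberg adjusted p under 0.05 between arrays labelled ERBB2 and vector arrays, where 45.9% of 13736 genes were called. All 8 were also called between EGF and vector arrays, against a background of 36.2%, and between arrays labelled ERBB2 and EGF arrays, against 28.8%, where 3 were higher (background 12.8%) and 5 lower (16%). Because some members were picked for such changes, nothing is read from these counts. Between arrays labelled ERBB2 and vector arrays 3 of the 8 were higher and 5 lower, with a median size of change over all 10 genes of 1.95 against 0.39 over all tested genes. Between EGF and vector arrays 2 were higher and 6 lower, with a median size of 0.83 against 0.325. Both comparisons use the same vector arrays. The medians over 10 genes include the untested CYP1A1 and MAOB, and nothing is read from these medians either.

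**Figure D1:**
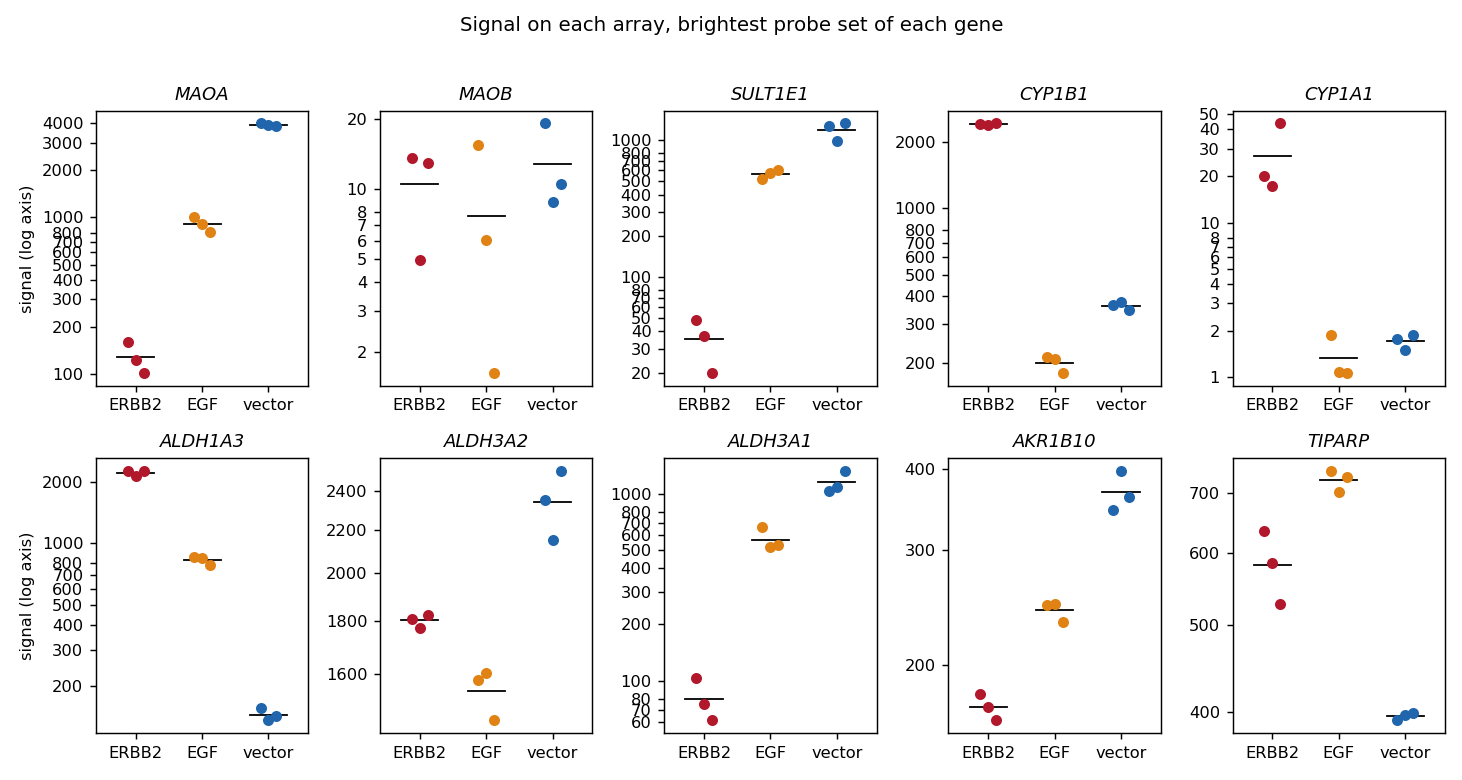
Signal (log axis, each panel with its own range) of the brightest probe set of each of the 10 genes on the 3 arrays labelled ERBB2, the 3 EGF arrays and the 3 vector arrays; points are arrays and lines are group means. The MAOA, SULT1E1, ALDH3A1 and AKR1B10 arrays step up from the group labelled ERBB2 over EGF to vector, ALDH1A3 steps down, and CYP1B1 is high in the group labelled ERBB2 and lowest with EGF.

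**Figure D2:**
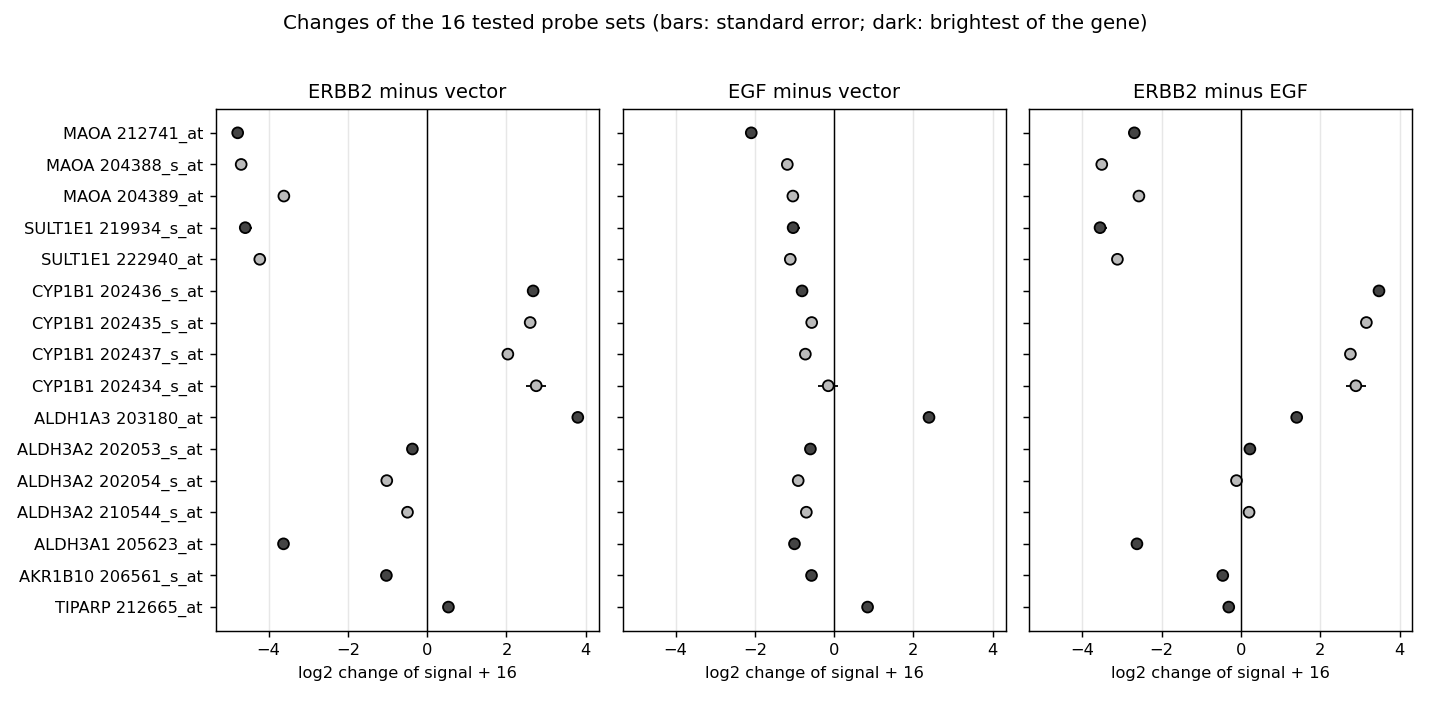
Change (difference of group means of log2(signal + 16), bars are standard errors) of the 16 member probe sets past the filter in the 3 comparisons; dark points are the brightest probe set of each gene. Probe sets of one gene lie on the same side of 0 except those of ALDH3A2 between arrays labelled ERBB2 and EGF arrays, and CYP1B1 is right of 0 for arrays labelled ERBB2 and left of it for EGF.

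MAOA, monoamine oxidase A, was the member with the widest span. Its signal was 162, 124 and 101 on arrays labelled ERBB2, 1013, 905 and 811 on EGF arrays and 3976, 3898 and 3857 on vector arrays. The 3 groups did not overlap. The log2 change was -4.78 ± 0.12 (SE, n = 3 each) for arrays labelled ERBB2 and -2.09 ± 0.12 for EGF, both against vector, and -2.69 ± 0.12 for arrays labelled ERBB2 against EGF. Fewer cells that express a gene and less of its RNA per cell cannot be told apart in these bulk samples. A second MAOA probe set read 39.4, 53.2 and 36.8 on arrays labelled ERBB2, 635, 703 and 627 with EGF and 1515, 1399 and 1601 on vector arrays, and the third gave the same order without overlap. The probe sets differed in the size of the EGF change, which was -1.18 ± 0.11 and -1.04 ± 0.12 for these 2, less than -2.09 for the brightest.

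MAOB, the paralog that prefers phenylethylamine, lies next to MAOA on the X chromosome, with 0 other protein-coding genes between them in the RefSeq gene table, yet its signals stayed at the bottom of the range. Its brightest probe set read 13.6, 4.96 and 12.9 on arrays labelled ERBB2, 15.5, 6.05 and 1.62 on EGF arrays and 19.2, 8.84 and 10.5 on vector arrays. The groups overlapped, and with no detection calls none of these values can be told from background.

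Promoter windows from 250 bases before to 50 bases after a RefSeq start (build GRCh38.p14) were given for 7 of the 10 genes, 10 windows in all; CYP1B1, ALDH3A1 and AKR1B10 had none. They were searched on both strands for GCGTG, the core of the site of AHR with ARNT, for TGACNNNGC, the core of the antioxidant response element, for GTAAACA, a FOXO core, and for TGANTCA, an AP-1 site. The second and the last of these can overlap. GCGTG stood in 36.5% of 35116 windows of the same length in the table, TGACNNNGC in 13.3%, GTAAACA in 3.42% and TGANTCA in 7.71%. GCGTG was found in 5 of the 10 member windows and the other motifs in 0 of them. The windows of 4 genes are shown because they stand for the 2 largest opposite changes, MAOA and ALDH1A3, and for the AHR-responsive genes CYP1A1 and TIPARP. Capitals mark GCGTG or, where it lies on the other strand, CACGC.
MAOA, chrX:43656049-43656348, plus strand: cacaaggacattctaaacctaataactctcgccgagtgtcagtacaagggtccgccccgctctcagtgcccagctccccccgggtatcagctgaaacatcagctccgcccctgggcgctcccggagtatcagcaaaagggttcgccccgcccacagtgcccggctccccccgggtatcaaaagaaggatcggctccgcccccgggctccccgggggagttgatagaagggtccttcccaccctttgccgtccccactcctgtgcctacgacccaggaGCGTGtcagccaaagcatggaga
ALDH1A3, chr15:100879581-100879880, plus strand: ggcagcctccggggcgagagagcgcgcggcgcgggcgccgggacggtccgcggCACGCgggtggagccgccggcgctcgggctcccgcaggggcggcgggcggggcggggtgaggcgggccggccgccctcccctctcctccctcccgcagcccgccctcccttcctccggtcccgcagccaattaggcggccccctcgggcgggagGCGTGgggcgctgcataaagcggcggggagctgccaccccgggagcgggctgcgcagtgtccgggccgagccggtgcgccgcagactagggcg
CYP1A1, chr15:74725479-74725778, minus strand: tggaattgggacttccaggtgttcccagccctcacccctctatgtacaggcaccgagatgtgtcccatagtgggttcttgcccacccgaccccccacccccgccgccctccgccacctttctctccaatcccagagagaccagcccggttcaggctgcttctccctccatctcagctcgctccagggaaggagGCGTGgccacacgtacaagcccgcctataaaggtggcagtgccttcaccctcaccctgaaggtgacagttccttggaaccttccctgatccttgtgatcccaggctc
TIPARP, chr3:156674340-156674639, plus strand: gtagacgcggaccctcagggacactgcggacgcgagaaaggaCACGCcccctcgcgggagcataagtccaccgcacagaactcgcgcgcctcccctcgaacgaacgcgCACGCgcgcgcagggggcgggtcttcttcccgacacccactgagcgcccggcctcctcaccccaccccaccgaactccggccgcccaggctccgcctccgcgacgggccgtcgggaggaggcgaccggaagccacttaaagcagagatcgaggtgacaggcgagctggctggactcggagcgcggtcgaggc
The match lies 27 bases after the start in MAOA, 197 and 43 bases before it in ALDH1A3, 57 bases before it in CYP1A1, and 208 and 142 bases before it in the first of 3 TIPARP windows. The SULT1E1 window held none of the 4 motifs. A match describes letters in a window and is not evidence of a bound site.

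SULT1E1, the estrogen sulfotransferase, followed MAOA in direction. Its signal was 48.3, 36.9 and 19.8 on arrays labelled ERBB2, 520.2, 577 and 608 with EGF and 1263, 977 and 1324 on vector arrays. All 3 groups were apart, and the lowest value, 19.8, was close to the median of all probe sets on arrays labelled ERBB2, 17.9 to 20.1. On the log2 scale SULT1E1 changed by -4.59 ± 0.16 for arrays labelled ERBB2 and -1.03 ± 0.16 for EGF, both against vector arrays. The other SULT1E1 probe set read 42.2, 22.7 and 43.6 on arrays labelled ERBB2, 449, 427 and 409.8 with EGF and 939, 839.9 and 1054 on vector arrays, with log2 changes against vector of -4.22 ± 0.14 and -1.11 ± 0.14. Both probe sets gave the same order and nearly the same EGF change. The change on arrays labelled ERBB2 was -5.12 with a pseudocount of 1 and -3.66 with a pseudocount of 64.

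Here and for the lists that follow, genes are named for the comparisons in which their change was among the largest, and a comparison left out for a gene does not mean that it was unchanged there. Steroid and estrogen metabolism had 23 other tested genes. Of these, 3 were called higher and 9 lower on arrays labelled ERBB2 than on vector arrays. The share called was 52.2% against 45.9% of all tested genes, with a median change of -0.26 against -0.07 over all tested genes. With EGF 2 were higher and 9 lower (47.8% against 36.2%, median -0.31 against -0.10), and the higher count was 1 without vector replicate 1 or 2 or EGF replicate 1 or 2. The same shares of all tested genes, 45.9% and 36.2%, stand beside the list counts that follow. AKR1C3, which reduces 17-ketosteroids, averaged 1310.4 ± 196 (SD, n = 3) on arrays labelled ERBB2 and 4663 ± 154 on vector arrays (log2 change -1.83 ± 0.09, adjusted p = 2.104e-12). SRD5A1, a steroid 5-alpha-reductase, averaged 183 ± 26.5 on arrays labelled ERBB2 and 599 ± 42.8 on vector arrays (log2 change -1.63 ± 0.11, adjusted p = 3.981e-10). SULT1A1, a phenol sulfotransferase, averaged 245 ± 27.2 on arrays labelled ERBB2 and 661 ± 33.5 on vector arrays (log2 change -1.38 ± 0.11, adjusted p = 6.162e-09). With EGF the falls were led by AKR1C3 (log2 change -1.25 ± 0.09, adjusted p = 1.478e-09), AKR1C2 (log2 change -1.16 ± 0.10, adjusted p = 1.591e-08) and AKR1C1 (log2 change -1.08 ± 0.09, adjusted p = 2.618e-08). These 3 genes are closely related, and their probe sets may share targets. Between arrays labelled ERBB2 and EGF arrays, SRD5A1 was lower (log2 change -1.19 ± 0.11, adjusted p = 1.252e-07), as was HSD17B1, which makes estradiol (log2 change -0.73 ± 0.14, adjusted p = 0.0006185). HSD17B1 was highest with EGF, at 334, 355 and 279, against 202, 202 and 161 on arrays labelled ERBB2 and 129, 181 and 179 on vector arrays. The other tested HSD17B1 probe set had the opposite sign. HSD11B2, which inactivates cortisol, was also called lower (log2 change -0.82 ± 0.27, adjusted p = 0.03235), but not without ERBB2 replicate 1 or 3, without EGF replicate 1 or 3 or with no filter. Its signals were 9.63, 19.9 and 1.87 on arrays labelled ERBB2, a mean below the filter level, and 35.4, 21.4 and 31.5 with EGF. That change lay between -1.79 and -0.33 over the alternatives. STS, the sulfatase that opposes SULT1E1, averaged 30.03 ± 6.25 on arrays labelled ERBB2, 31.4 ± 6.38 with EGF and 29.7 ± 11.1 on vector arrays, and was not called (adjusted p = 0.9429 and 0.8594 against vector).

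Among 5 tested steroid receptor genes, NR3C1, the glucocorticoid receptor, fell to 466 ± 43.2 on arrays labelled ERBB2, against 1112 ± 89.5 on vector arrays (log2 change -1.23 ± 0.09, adjusted p = 1.826e-09). With EGF it averaged 604 ± 23.9 (log2 change -0.86 ± 0.09, adjusted p = 5.569e-07), and its 4 other tested probe sets were called lower in both comparisons. It was the only receptor called on arrays labelled ERBB2 in this fit, and without ERBB2 replicate 3 or with equal array medians 1 receptor was called higher as well. VDR, the vitamin D receptor, rose with EGF to 648 ± 41.95, against 351 ± 15.9 on vector arrays (log2 change 0.85 ± 0.14, adjusted p = 9.45e-05). Of its 3 other tested probe sets, 2 had the same sign and 1 was called. Between arrays labelled ERBB2 and EGF arrays VDR was lower (log2 change -0.52 ± 0.14, adjusted p = 0.009036, not called without ERBB2 replicate 3), as was NR3C1 (log2 change -0.36 ± 0.09, adjusted p = 0.006175). Neither was called with the mean of the gene's probe sets or without a variance trend. Of the 3 other tested VDR probe sets, only 1 had the same sign in this comparison, and it was called. ESR1, the estrogen receptor, averaged 15.8 ± 12.6 on arrays labelled ERBB2, 16.6 ± 6.58 with EGF and 22.3 ± 4.83 on vector arrays, and was not called against vector (adjusted p = 0.407 and 0.6104).

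CYP1B1, the estrogen and xenobiotic hydroxylase, was highest on arrays labelled ERBB2 and lowest with EGF. Its signal was 2394, 2387 and 2417 on arrays labelled ERBB2, 214, 209 and 179.5 with EGF and 367, 375 and 347 on vector arrays. EGF arrays were thus below vector arrays, and arrays labelled ERBB2 far above both. The log2 change was 2.67 ± 0.09 for arrays labelled ERBB2 against vector, -0.81 ± 0.09 for EGF against vector and 3.48 ± 0.09 for arrays labelled ERBB2 against EGF. The 2 next brightest probe sets gave the same order without overlap, with 2.60 ± 0.10 and 2.04 ± 0.09 for arrays labelled ERBB2 and -0.57 ± 0.10 and -0.73 ± 0.09 for EGF, both against vector. The dimmest read 135, 176 and 99.2 on arrays labelled ERBB2 and between 0.724 and 8.62 on EGF arrays, against 2.67 to 9.79 on vector arrays. It passed the filter only through the arrays labelled ERBB2 and was the 1 tested member probe set of 16 of which this was true.

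CYP1A1, the closest functional relative of CYP1B1 here, was dim on every array. It read 20.2, 17.2 and 43.8 on arrays labelled ERBB2, 1.88, 1.08 and 1.06 with EGF and 1.77, 1.50 and 1.89 on vector arrays. The arrays labelled ERBB2 lay above all 6 others, which overlapped each other. The highest value was that of ERBB2 replicate 3. The probe set was below the filter and was not tested in the fit used here. With no filter it was called higher on arrays labelled ERBB2 than on either other group, and was not called between EGF and vector arrays. Whether signals of 1 to 2 exceed background is unknown, so neither a fold nor a difference is given and nothing is read from those calls.

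TIPARP, an ADP-ribosyltransferase that modifies and restrains AHR, read 635, 585 and 527 on arrays labelled ERBB2, 741, 701 and 729 on EGF arrays and 391, 397 and 399 on vector arrays. Both groups were above vector, and EGF arrays were the highest, whereas CYP1B1 was lowest there. TIPARP differed on the log2 scale by 0.54 ± 0.09 for arrays labelled ERBB2 and 0.84 ± 0.09 for EGF, both against vector. Between arrays labelled ERBB2 and EGF arrays it was -0.31 ± 0.09, a call lost without ERBB2 replicate 3 (-0.24), EGF replicate 1 (-0.29) or EGF replicate 3 (-0.30) and without a variance trend.

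Of 8 other tested genes of the AHR pathway, 4 were called higher and 2 lower on arrays labelled ERBB2 than on vector arrays (75.0% called; median change 0.01). With EGF 2 were called higher and 3 lower (62.5%; median -0.21). The lower count was 1 without vector replicate 3 in both comparisons, without ERBB2 replicate 1 in the first and without EGF replicate 2 in the second. NQO1, a quinone reductase that responds to AHR and to NRF2, rose to 5488 ± 498 on arrays labelled ERBB2, against 1592 ± 138 on vector arrays (log2 change 1.77 ± 0.08, adjusted p = 1.327e-12). With EGF it averaged 1495 ± 66.6 (log2 change -0.09 ± 0.08, adjusted p = 0.4693), and EGF and vector arrays overlapped. That change had a positive sign, without a call, with equal array medians, and it was called lower with the mean of its probe sets (adjusted p = 0.04119). HSP90AA1, a chaperone that holds AHR in the cytoplasm, rose on arrays labelled ERBB2 (log2 change 0.60 ± 0.07, adjusted p = 1.197e-06) and with EGF (log2 change 0.41 ± 0.07, adjusted p = 0.0001995). PTGES3, its cochaperone, also rose on arrays labelled ERBB2 (log2 change 0.45 ± 0.06, adjusted p = 5.1e-06) and with EGF (log2 change 0.48 ± 0.06, adjusted p = 4.718e-06). AHR itself fell to 136 ± 17.98 on arrays labelled ERBB2, against 229.7 ± 50.04 on vector arrays (log2 change -0.68 ± 0.15, adjusted p = 0.001184). With EGF it averaged 156 ± 16.7 (log2 change -0.50 ± 0.15, adjusted p = 0.01827), a call lost without vector replicate 1 or 3, without EGF replicate 2 or 3, without a variance trend and with equal array medians. ARNT was lower in both comparisons (log2 change -0.46 ± 0.15, adjusted p = 0.01807, and with EGF log2 change -0.47 ± 0.15, adjusted p = 0.02144), but not without vector replicate 3 in either, without ERBB2 replicate 1 in the first, without EGF replicate 2 in the second or with equal array medians.

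The receptor's repressor AHRR, whose signals lay between 6.13 and 44.7, averaged 9.77 ± 3.90 with EGF and 34.3 ± 11 on vector arrays (log2 change -0.95 ± 0.26, adjusted p = 0.007774). On arrays labelled ERBB2 it averaged 26.9 ± 7.55, which was not called against vector (adjusted p = 0.5397). Its call between arrays labelled ERBB2 and EGF arrays (log2 change 0.73 ± 0.26, adjusted p = 0.04393) was lost under 11 of 19 alternatives, leaving out vector replicate 1, any ERBB2 replicate or EGF replicate 1 or 3 among them. In that comparison NQO1 was higher (log2 change 1.86 ± 0.08, adjusted p = 1.95e-12), and so was HSP90AB1 (log2 change 0.37 ± 0.07, adjusted p = 0.0005457), whose call was lost with equal array medians.

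**Figure D3:**
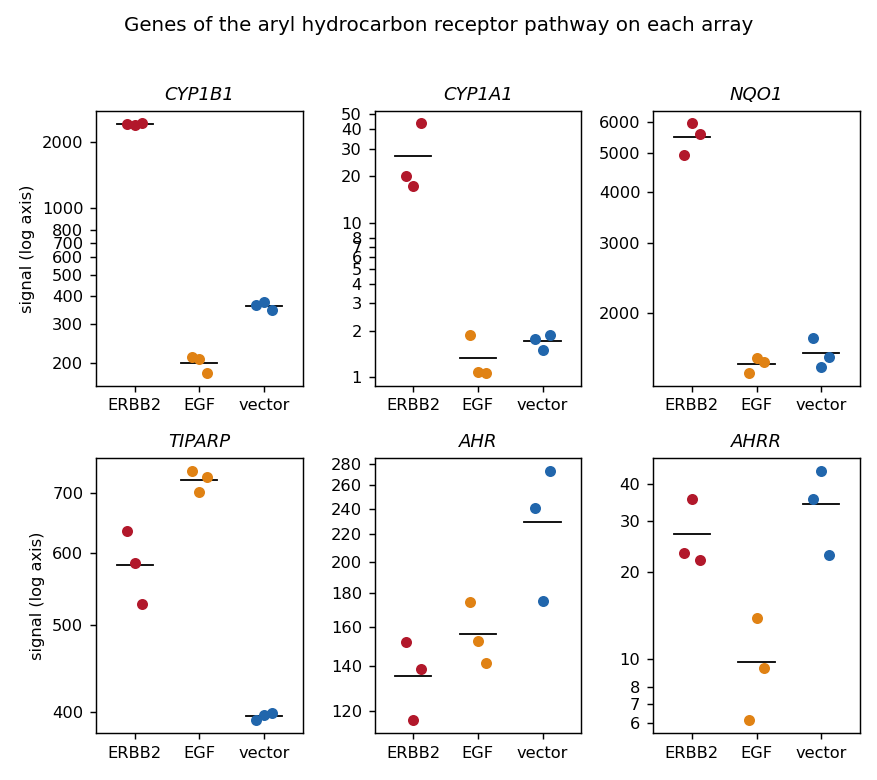
Signal (log axis) of CYP1B1, CYP1A1, NQO1, TIPARP, AHR and AHRR on each of the 9 arrays, 3 per group; points are arrays and lines are group means. CYP1B1, CYP1A1 and NQO1 were highest on all 3 arrays labelled ERBB2, TIPARP on all 3 EGF arrays, and AHR had its highest group mean on vector arrays.

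ALDH1A3, the retinaldehyde dehydrogenase, was the member with the largest rise. Its signal was 2258, 2138 and 2276 on arrays labelled ERBB2, 859.8, 846 and 784 with EGF and 156, 136 and 143 on vector arrays. No group overlapped another, and the order was the reverse of that of MAOA and SULT1E1. The log2 change was 3.80 ± 0.09 for arrays labelled ERBB2 and 2.39 ± 0.09 for EGF, both against vector, and 1.41 ± 0.09 for arrays labelled ERBB2 against EGF. A second ALDH1A3 probe set read between 0.416 and 22.9 on all 9 arrays with groups that overlapped and was below the filter. Averaging both probe sets gave log2 changes of 1.97 for arrays labelled ERBB2 and 1.25 for EGF.

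Of 17 other tested genes of the retinoid pathway, 5 were called higher and 7 lower on arrays labelled ERBB2 than on vector arrays (70.6% called; median change -0.40), and the higher count was 3 without vector replicate 2 or ERBB2 replicate 3. With EGF 4 were higher and 5 lower (52.9%; median 0.02). FABP5, which carries retinoic acid and fatty acids, rose to 1677 ± 45.5 on arrays labelled ERBB2, against 237 ± 17.6 on vector arrays (log2 change 2.74 ± 0.09, adjusted p = 4.656e-15). With EGF it averaged 963 ± 61.97 (log2 change 1.95 ± 0.09, adjusted p = 2.742e-12), the same order of groups as ALDH1A3. DHRS3, which turns retinaldehyde back into retinol, fell to 88.99 ± 19.5 on arrays labelled ERBB2, against 532 ± 132 on vector arrays (log2 change -2.37 ± 0.16, adjusted p = 2.731e-10). It averaged 547 ± 54.2 with EGF, where it was not called (adjusted p = 0.818), and was lower on arrays labelled ERBB2 than with EGF (log2 change -2.44 ± 0.16, adjusted p = 7.437e-10). RBP4, the retinol carrier of plasma, was lower on arrays labelled ERBB2 (log2 change -2.30 ± 0.21, adjusted p = 3.75e-08) and with EGF (log2 change -1.24 ± 0.21, adjusted p = 0.0001703) than on vector arrays. Its signals were 9.60, 2.40 and 11.99 on arrays labelled ERBB2, a mean below the filter level, and that change lay between -3.70 and -1.19 over the alternatives. The EGF change lay between -1.56 and -0.76. DHRS9, a retinol dehydrogenase, was lower on arrays labelled ERBB2 (log2 change -1.40 ± 0.19, adjusted p = 5.729e-06) and with EGF (log2 change -1.20 ± 0.19, adjusted p = 6.532e-05). RARG, a retinoic acid receptor, averaged 73.6 ± 23.9 on arrays labelled ERBB2, 151 ± 8.14 with EGF and 116 ± 9.49 on vector arrays; it was lower on arrays labelled ERBB2 than on vector arrays (log2 change -0.59 ± 0.17, adjusted p = 0.01005), though not without ERBB2 replicate 3, and than with EGF (log2 change -0.93 ± 0.17, adjusted p = 0.0004282), both calls being lost with the mean of its probe sets. The retinoic acid receptor RARB and CYP26B1, which breaks retinoic acid down, were not called against vector (adjusted p = 0.8595 and 0.526 for arrays labelled ERBB2, 0.4718 and 0.7293 for EGF), and CYP26A1 was below the filter.

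The ALDH3A enzymes, ALDH3A1 of the cytosol and ALDH3A2 of the endoplasmic reticulum, oxidize medium and long-chain aldehydes and lie on chromosome 17 with 1 protein-coding gene between them in the RefSeq gene table. ALDH3A1 read 103, 75.4 and 61.2 on arrays labelled ERBB2, 661, 517 and 531 with EGF and 1037, 1095 and 1334 on vector arrays. All groups were apart, in the order of MAOA and SULT1E1 whereas the AHR-responsive CYP1B1 was highest on arrays labelled ERBB2. Its single probe set gave a log2 change of -3.63 ± 0.14 for arrays labelled ERBB2 and -1.0 ± 0.14 for EGF, both against vector arrays.

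ALDH3A2 changed far less, with 1808, 1771 and 1825 on arrays labelled ERBB2, 1578, 1603 and 1442 with EGF and 2356, 2156 and 2514 on vector arrays. Vector arrays were the highest and EGF arrays the lowest. The log2 change was -0.37 ± 0.08 for arrays labelled ERBB2 and -0.60 ± 0.08 for EGF, both against vector. Its 3 probe sets all had negative changes in both, from -1.02 to -0.37 for arrays labelled ERBB2 and from -0.91 to -0.60 for EGF. They disagreed between arrays labelled ERBB2 and EGF arrays, where the brightest was at 0.22 ± 0.08 and the second brightest at -0.11 ± 0.08. The call of the brightest there was lost under 9 of 20 alternatives, including leaving out any ERBB2 replicate (0.215 to 0.236), EGF replicate 1 or EGF replicate 3, and its change was 0.015 with equal array medians.

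Of 14 other tested aldehyde dehydrogenase genes, 3 were called higher and 7 lower on arrays labelled ERBB2 than on vector arrays (71.4% called; median change -0.35), the lower count being 4 without vector replicate 1. With EGF 2 were higher and 6 lower (57.1%; median -0.49). ALDH6A1, a mitochondrial enzyme of valine breakdown, fell to 72.7 ± 13.4 on arrays labelled ERBB2, against 352 ± 22.4 on vector arrays (log2 change -2.06 ± 0.14, adjusted p = 2.826e-10). ALDH3B1 was lower on arrays labelled ERBB2 (log2 change -1.75 ± 0.15, adjusted p = 1.51e-08) and with EGF (log2 change -0.95 ± 0.15, adjusted p = 7.877e-05). The mitochondrial folate enzyme ALDH1L2 was higher on arrays labelled ERBB2 (log2 change 1.10 ± 0.14, adjusted p = 1.681e-06). The cytosolic folate enzyme ALDH1L1 was lower on arrays labelled ERBB2 (log2 change -0.67 ± 0.24, adjusted p = 0.03469) and with EGF (log2 change -0.96 ± 0.24, adjusted p = 0.005417). Its signals were low, averaging 24.1 ± 7.04 on arrays labelled ERBB2, 17.5 ± 9.59 with EGF and 47.4 ± 1.46 on vector arrays. The other tested ALDH1L1 probe set was called in neither comparison, and the EGF change lay between -1.51 and -0.46 over the alternatives. Mitochondrial ALDH1B1 was higher on arrays labelled ERBB2 (log2 change 0.64 ± 0.17, adjusted p = 0.005702) and with EGF (log2 change 1.13 ± 0.17, adjusted p = 4.486e-05). ALDH2, which clears acetaldehyde, was dim, at 4.49 ± 4.001 on arrays labelled ERBB2, 19.5 ± 7.78 with EGF and 21.5 ± 4.45 on vector arrays; its call on arrays labelled ERBB2 (log2 change -0.88 ± 0.28, adjusted p = 0.016) was lost without vector replicate 1. ALDH1A1, the relative of ALDH1A3 used as a stem cell marker, was below the filter, with means of 1.88 on arrays labelled ERBB2, 5.64 with EGF and 3.06 on vector arrays.

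AKR1B10, an aldo-keto reductase that reduces retinaldehyde and reactive aldehydes, read 181, 172 and 165 on arrays labelled ERBB2, 247, 249 and 233 on EGF arrays and 347, 398 and 362 on vector arrays. The groups did not overlap and were ordered as for MAOA, with smaller steps. On the log2 scale AKR1B10 differed by -1.03 ± 0.11 for arrays labelled ERBB2 and -0.57 ± 0.11 for EGF, both against vector, and the EGF call was lost with equal array medians (-0.28).

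Other aldo-keto reductases were lower too. All 5 tested were called lower on arrays labelled ERBB2 than on vector arrays (100% called, median change -1.10) and 4 of 5 with EGF (80%, median -1.08). Of the 5, 3 were the closely related AKR1C1, AKR1C2 and AKR1C3, which the steroid and NRF2 lists hold too. AKR1C1 averaged 3161 ± 607 on arrays labelled ERBB2 and 7200.4 ± 146 on vector arrays (log2 change -1.20 ± 0.09, adjusted p = 2.484e-09), and AKR1C2 averaged 3170.1 ± 636 and 6751 ± 179 on the same groups (log2 change -1.10 ± 0.10, adjusted p = 1.243e-08). These genes, AKR1B10 and NQO1 are known NRF2 targets, and the list of the NRF2 pathway split. Of 25 tested genes, 9 were called higher and 10 lower on arrays labelled ERBB2 than on vector arrays (76%; median -0.10), and 3 were higher and 11 lower with EGF (56%; median -0.24), the higher count being 1 without vector replicate 3. Between arrays labelled ERBB2 and EGF arrays 10 were higher and 8 lower (72%, against 28.8% of all tested genes). SLC7A11, the cystine importer, rose on arrays labelled ERBB2 (log2 change 1.89 ± 0.13, adjusted p = 3.803e-10). TXNRD1, thioredoxin reductase, fell with EGF to 556 ± 60.3, against 1671 ± 77.01 on vector arrays (log2 change -1.57 ± 0.09, adjusted p = 9.118e-11), rose on arrays labelled ERBB2 to 2515 ± 213 (log2 change 0.58 ± 0.09, adjusted p = 2.073e-05), and was higher on arrays labelled ERBB2 than with EGF (log2 change 2.15 ± 0.09, adjusted p = 6.537e-13), as was the exporter ABCC2 (log2 change 1.73 ± 0.16, adjusted p = 1.42e-07). HMOX1, heme oxygenase, was lower with EGF (log2 change -1.18 ± 0.26, adjusted p = 0.001477). The brightest NFE2L2 probe set, for NRF2 itself, was lower on arrays labelled ERBB2 (log2 change -0.94 ± 0.08, adjusted p = 8.015e-09) and with EGF (log2 change -0.46 ± 0.08, adjusted p = 0.0001358), but its 2 other tested probe sets had the opposite sign on arrays labelled ERBB2 and the mean of all was 0.153 there; the EGF call was lost with that mean and with equal array medians. KEAP1, the inhibitor of NRF2, was lower on arrays labelled ERBB2 (log2 change -0.37 ± 0.11, adjusted p = 0.009987) and with EGF (log2 change -0.59 ± 0.11, adjusted p = 0.0002852), both calls lost with equal array medians.

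Of 14 tested genes of amine and polyamine metabolism other than the monoamine oxidases, 6 were called higher and 4 lower on arrays labelled ERBB2 than on vector arrays (71.4% called; median change 0.23). These counts were 3 higher without ERBB2 replicate 2 and 2 lower without vector replicate 2. With EGF 7 were higher and 4 lower (78.6%; median 0.41). ODC1, ornithine decarboxylase of polyamine synthesis, rose to 3592 ± 76.3 on arrays labelled ERBB2, against 1227 ± 15.2 on vector arrays (log2 change 1.54 ± 0.06, adjusted p = 3.647e-13), and to 2936 ± 36.5 with EGF (log2 change 1.25 ± 0.06, adjusted p = 2.676e-11). AMD1, which supplies the aminopropyl donor, rose on arrays labelled ERBB2 (log2 change 1.59 ± 0.11, adjusted p = 6.019e-10) and with EGF (log2 change 1.20 ± 0.11, adjusted p = 7.514e-08). SAT1, which acetylates polyamines for export, rose with EGF (log2 change 1.16 ± 0.08, adjusted p = 6.936e-10) and was lower on arrays labelled ERBB2 than with EGF (log2 change -1.36 ± 0.08, adjusted p = 9.558e-11). LOX, the copper amine oxidase that cross-links collagen, fell to 148 ± 33.2 on arrays labelled ERBB2, against 1031 ± 45.9 on vector arrays (log2 change -2.69 ± 0.12, adjusted p = 1.149e-12), and was also lower there than with EGF (log2 change -1.86 ± 0.12, adjusted p = 9.022e-10). DDC, which makes dopamine and serotonin, was higher on arrays labelled ERBB2 than with EGF (log2 change 1.23 ± 0.20, adjusted p = 8.363e-05).

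TIPARP is also a PARP family enzyme, and of 15 other tested genes of that family 2 were called higher and 7 lower on arrays labelled ERBB2 than on vector arrays (60%; median -0.31). With EGF 2 were higher and 5 lower (46.7%; median -0.42), and the higher count was 0 without EGF replicate 1 and 1 without vector replicate 1 or 3, any ERBB2 replicate or EGF replicate 3. PARP2, of DNA repair, rose on arrays labelled ERBB2 (log2 change 1.50 ± 0.12, adjusted p = 6.164e-09) and was higher there than with EGF (log2 change 1.20 ± 0.12, adjusted p = 4.263e-07). PARP8 was lower on arrays labelled ERBB2 (log2 change -1.01 ± 0.18, adjusted p = 0.0001447), and so was PARP10 (log2 change -0.86 ± 0.23, adjusted p = 0.004764), although its groups overlapped. The antiviral ZC3HAV1 (log2 change -0.93 ± 0.10, adjusted p = 5.337e-07), TNKS (log2 change -0.86 ± 0.13, adjusted p = 3.392e-05; lost with the mean of its probe sets) and PARP4 (log2 change -0.69 ± 0.10, adjusted p = 3.688e-05) were lower with EGF. TNKS (log2 change -0.72 ± 0.13, adjusted p = 0.0001275) and PARP4 (log2 change -0.77 ± 0.10, adjusted p = 4.526e-06) were lower on arrays labelled ERBB2 too. ZC3HAV1 was higher on arrays labelled ERBB2 than with EGF (log2 change 0.72 ± 0.10, adjusted p = 1.642e-05). The brightest TNKS2 probe set was lower there (log2 change -0.59 ± 0.12, adjusted p = 0.0008728), but its 2 other probe sets were called the other way.

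**Figure D4:**
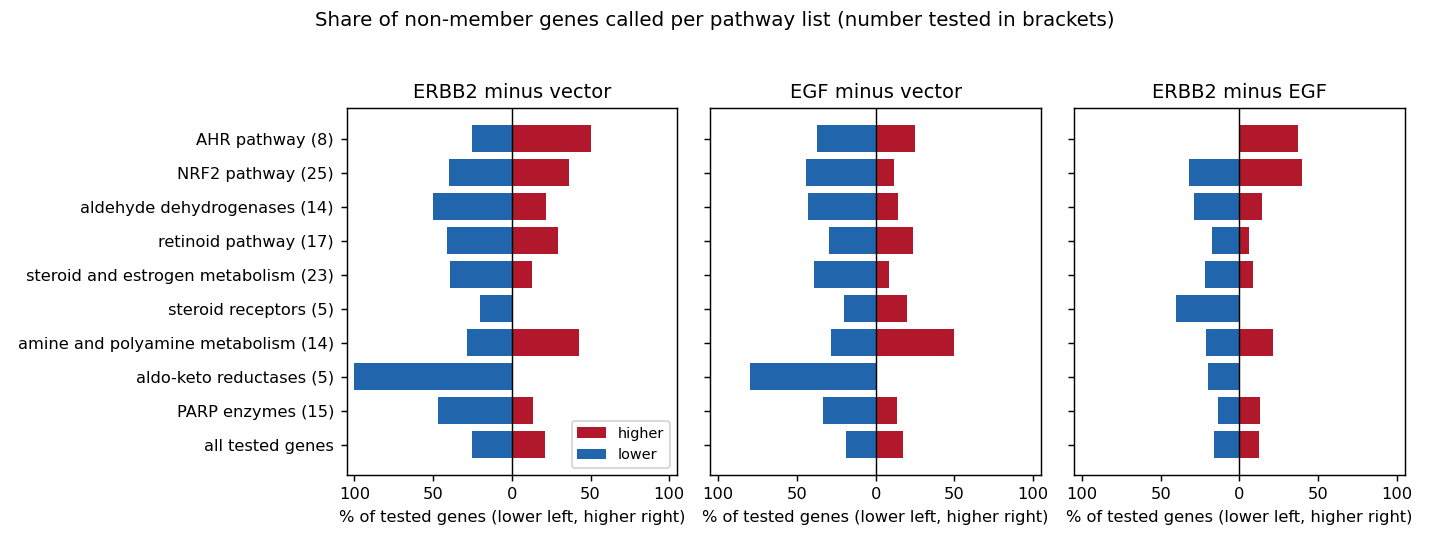
Share of the tested genes of each pathway list, members left out, that were called lower (left, blue) or higher (right, red) in each of the 3 comparisons, with all tested genes in the bottom row; the number of genes tested is in brackets. The aldo-keto reductases were called lower in 5 of 5 cases on arrays labelled ERBB2, while the NRF2 list split into 9 higher and 10 lower.

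These list counts stand beside 20.9% of all 13736 genes called higher and 25.1% lower on arrays labelled ERBB2, and 17.2% higher and 19% lower with EGF. Between arrays labelled ERBB2 and EGF arrays the shares were 12.8% higher and 16% lower. The direction of small EGF changes depended on the scaling. With equal array medians the median change of all probe sets in EGF against vector was 0.11 in place of -0.11, and the share of calls that were higher was 78% in place of 44.8%. In arrays labelled ERBB2 against EGF the median was -0.13 in place of 0.03 and the share was 23.8% in place of 48.8%. Under that scaling the EGF counts were 7 higher and 7 lower for the NRF2 list, 6 and 5 for steroid and estrogen metabolism and 6 and 3 for the retinoid list, whereas 3 of 5 aldo-keto reductases were still lower and none was higher. The 8 tested members kept their sign in every comparison under it.

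Genes with the most similar pattern were sought among the other 13735 tested genes as those with the smallest Euclidean distance between the 3 centred group means of log2(signal + 16) over 9 arrays. The nearest to MAOA were FLRT3 (distance 0.469; log2 change -4.12 for arrays labelled ERBB2 and -1.84 for EGF, both against vector), BTG1 (distance 0.66; log2 change -4.02 for arrays labelled ERBB2 and -2.17 for EGF, both against vector) and EHF (distance 0.749; log2 change -4.03 for arrays labelled ERBB2 and -2.36 for EGF, both against vector). For SULT1E1 they were KRT15 (distance 0.252; log2 change -4.28 for arrays labelled ERBB2 and -0.73 for EGF, both against vector), KRT14 (distance 0.44; log2 change -3.999 for arrays labelled ERBB2 and -0.57 for EGF, both against vector) and GLUL (distance 0.542; log2 change -3.87 for arrays labelled ERBB2 and -0.90 for EGF, both against vector). KRT15 and KRT14 are keratins of basal epithelium, and GLUL is glutamine synthetase. For ALDH1A3 they were DTL (distance 0.238; log2 change 3.83 for arrays labelled ERBB2 and 2.70 for EGF, both against vector), RRM2 (distance 0.355; log2 change 4.22 for arrays labelled ERBB2 and 2.37 for EGF, both against vector) and FEN1 (distance 0.45; log2 change 3.39 for arrays labelled ERBB2 and 1.77 for EGF, both against vector), which are genes of DNA replication and nucleotide synthesis. For TIPARP, whose changes are small and have many near matches, they were GPRC5A (distance 0.005; log2 change 0.53 for arrays labelled ERBB2 and 0.84 for EGF, both against vector), ZNF146 (distance 0.01; log2 change 0.54 for arrays labelled ERBB2 and 0.86 for EGF, both against vector) and SRPK1 (distance 0.017; log2 change 0.52 for arrays labelled ERBB2 and 0.85 for EGF, both against vector).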

How the data were processed

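RNA of MCF10A cells was measured on 9 one-colour Affymetrix arrays, 3 per group, with groups and replicate numbers taken from the sample titles. The authors deposited a signal intensity on a linear scale for each probe set; MAS5 is named per the submitters' processing notes, its version and parameters not being given. Every array had a 2% trimmed mean of 100.03, so the authors' values had been scaled array by array. Such scaling absorbs part of any shift of many genes one way. Detection calls were not used here. Depth has no counterpart on arrays, whose number limits the precision.

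Genes were named from the platform annotation, in which 41097 probe sets had 1 gene, 1801 several and 11777 none. The 62 control probe sets and probe sets with a mean at or below the 40th percentile were left out, which left 32768. limma 3.58.1 in R 4.3.3 (lmFit, eBayes with a variance trend) was fitted to log2(signal + 16) over all 9 arrays, with Benjamini-Hochberg adjusted p-values over all probe sets called under 0.05. This fit gave every adjusted p printed, except that of NQO1 with the mean of its probe sets. For 1 probe set alone, an exact permutation of 3 against 3 arrays gives at best p = 0.1. The probe set with the highest mean stood for its gene. The fit was run on simulated data with independent noise, a check of the code that does not bear on the array scaling. The 10 members, the 9 pathway lists, 3 marker lists, motifs and tests were chosen with earlier results of these data known. Named from each list were up to 3 called genes with the largest change per comparison, plus AHR, ARNT, AHRR, NFE2L2, KEAP1, NQO1, ESR1, STS, CYP26A1, CYP26B1, RARB, RARG, ALDH1A1 and ALDH2; AKR1B1 was named there too and not analysed here. Alternatives were pseudocounts, filters, scalings, eBayes without a trend, array weights, only the arrays compared, the replicate number as a block, averaging a gene's probe sets, and leaving out each array. Deviations from group means of arrays with the same replicate number correlated between -0.03 and 0.02 over 9 pairs. No effect shared by same-numbered arrays was thus visible, which cannot show whether the samples were handled in pairs.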

Additional observations from a re-analysis of the deposited data

How the results depend on the processing

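Each result was recomputed under 20 alternatives. No change of a tested member reversed, and of 480 recomputed changes 430 stayed within 1 SD of the spread between replicates. The 50 others came with pseudocounts of 1 or 64, equal array medians and the mean of all probe sets. The 8 tested members were called against vector under all alternatives, except AKR1B10 with EGF at equal array medians. Between arrays labelled ERBB2 and EGF arrays 6 to 8 were called when 1 array was left out, the calls lost being ALDH3A2 and TIPARP. Some members were picked for large changes on these same arrays, so nothing is read from these repeated calls. Leaving out 1 array gave 11329 to 12622 called probe sets for arrays labelled ERBB2 against vector (12700 with all arrays), 7716 to 9749 for EGF against vector (9449) and 6246 to 7886 for arrays labelled ERBB2 against EGF (7790). With the replicate number as a replicate block the counts were 12559, 9310 and 7623, and 8 members were called in each comparison. The labels do not say whether same-numbered samples were paired, so this is not offered as a paired analysis. Of 1080 recomputed list counts 77 moved by over 1.5 times. Without detection calls, low signals of CYP1A1 and MAOB cannot be told from background. The same holds for SULT1E1, RBP4, ALDH2 and HSD11B2 on arrays labelled ERBB2 and for AHRR, HMOX1 and ALDH1L1 with EGF. Sizes of change that rest on these low signals depend on the pseudocount.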
